A study of Homo sapiens with 12 samples.

Results

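Of the 21 zinc finger genes of the 19p13.1-p12 cluster that were tested, 7 rose in the HEK293T line with EZH2 Y641F and 10 in the line with EZH2 A677G, both gain-of-function (GOF) mutants, and 0 in the line with loss-of-function (LOF) EZH2, where 2.09%, 2.07% and 0.14% of all genes tested rose. The cluster is a run of KRAB zinc finger genes on the short arm of chromosome 19. The list held 36 gene symbols chosen by position and name, and 21 of them were matched in a count table of 14438 genes. The choice of this cluster was made with earlier results of these counts known, so the counts of changed members below are descriptions, set beside the share of all genes tested. The list names 36 symbols and sets no limit on a measured value, but it too was drawn up with earlier results known. ZNF43, ZNF66, ZNF90, ZNF93, ZNF98, ZNF99, ZNF208, ZNF253, ZNF257, ZNF486, ZNF626, ZNF676, ZNF728, ZNF729 and ZNF730 were not analysed here. All 21 matched members, with counts between 10 and 4545 in a sample, entered the test. In GENCODE on GRCh38, the 36 genes ran from chr19:19668796 to 24129968, a span of 4.46 Mb, with 11 of the matched members on the plus strand and 10 on the minus strand.

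RNA-Seq was performed on stably infected HEK293T cells, a human embryonic kidney line, to study how mutations of the catalytic site of EZH2 act on transcription. There were 4 lines, with 3 replicates each, and each carried an introduced EZH2 on top of the cells' own EZH2: EZH2 WT, EZH2 Y641F, EZH2 A677G and the double mutant EZH2 H689A/F667I. The study names Y641F and A677G as GOF mutants and H689A/F667I as the LOF mutant, and the lines are called WT, Y641F, A677G and the LOF mutant below. Lines came from lentiviral infection and blasticidin selection, which the study used to obtain monoclonal populations. The number of infected populations per genotype is not stated, so a property of a population and an effect of its mutation cannot be told apart. The labels call the samples replicates and the study speaks of biological replicates, but neither says whether they came from separate cultures, so the p-values measure only the spread between these samples, which may be technical. Counts per sample summed to between 32137700 and 44562413, of which the members took between 9499 and 15327. On the first principal components of log2 CPM, replicate 1 of EZH2 Y641F stood apart from replicates 2 and 3, with a PC1 score of 5.597 against 17.7 and 17.1 and a PC2 score of -19.2 against 2.25 and -0.78. Of 7 marker genes of HEK293T cells, VIM was at 244 to 272 CPM, and CDH2, KRT8, KRT18, NEFL and NEFM were also above 3 CPM in every sample, while PAX2 was at 0 in a line and was not tested. The blood cell markers PTPRC, MS4A1 and CD3E were not analysed here.

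KRAB zinc finger proteins are the largest family of human transcription factors. Each protein pairs an amino-terminal KRAB domain with a row of C2H2 zinc fingers that reads a DNA sequence, and the KRAB domain recruits the corepressor TRIM28, which brings the H3K9 methyltransferase SETDB1 and heterochromatin protein 1 to the bound site. Many members bind and silence transposable elements. The genes arose by repeated duplication, sit in clusters on chromosome 19 and resemble each other in exon structure and in sequence. EZH2 is the catalytic subunit of PRC2, which writes the repressive mark H3K27me3.

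In the main GENCODE transcripts, 16 of the 21 matched members had 4 exons. The protein sequences held between 5 and 32 C2H2 fingers by a pattern search, with a median of 12. A KRAB box pattern was found in 19 of the 21, the exceptions being ZNF714 and ZNF492. Because genes of this cluster are copies of each other, reads can fit more than 1 gene. For 18 of the 21, at most 7.79% of the 50-base words of the main transcript occurred in another gene. The share was 55.2% for ZNF724P, named ZNF724 in the annotation and overlapped by a read-through transcript, 33.3% for ZNF492, mostly shared with ZNF98, and 28.6% for ZNF738. The estimates of these 3 genes are uncertain, since salmon divides shared reads among transcripts.

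The members also shared promoter sequence, and windows of genes that rose and of genes that did not are shown here for comparison. RefSeq promoters on GRCh38.p14, from 250 bases before to 50 after the start, were found for 28 of the 36 symbols and for 19 of the 21 matched members, but not for ZNF506 and ZNF738. The 8-base word CCAATCAG, which holds a CCAAT box, was on the sense strand in 28 of 28 promoters and on the antisense strand in 0 of 28. It was on the sense strand in 2.60% and on either strand in 4.75% of 27305 promoters of the same length, and on the sense strand in 10.8% of 480 promoters of other genes with ZNF symbols. A further word that did not overlap it, CTGTCACT, was on the sense strand in 25 of 28 promoters, among them 17 of the 19 matched members, all but ZNF101 and ZNF708. Those 2 passed the threshold in no comparison, and neither did ZNF14, ZNF430, ZNF431, ZNF724P, ZNF675 and ZNF726, whose promoters hold the word. CTGTCACT was in 1.29% of all promoters on the sense strand, 2.35% on either strand and 7.50% of those of other ZNF genes. Both words were picked as the most shared in these promoters, so their frequency is a description. CCAATCAG began between 29 and 87 bases before the annotated start. The windows below lie upstream of the RefSeq start and are written 5′ to 3′ on the strand of the gene, with every copy of either word in capitals. The first 6 belong to genes that rose in both GOF mutants, ZNF91 to a gene that rose in A677G, and ZNF430 and ZNF675 to genes that did not pass the threshold in any comparison.
ZNF429, chr19:21505523-21505590, plus strand: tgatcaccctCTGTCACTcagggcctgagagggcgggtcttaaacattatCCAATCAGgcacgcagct
ZNF492, chr19:22634141-22634289, plus strand: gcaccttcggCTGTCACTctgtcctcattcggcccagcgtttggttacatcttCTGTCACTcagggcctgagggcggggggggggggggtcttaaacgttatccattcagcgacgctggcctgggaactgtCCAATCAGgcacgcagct
ZNF681, chr19:23758931-23759027, minus strand: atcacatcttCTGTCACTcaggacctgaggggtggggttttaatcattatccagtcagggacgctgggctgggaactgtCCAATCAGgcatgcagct
ZNF85, chr19:20923076-20923187, plus strand: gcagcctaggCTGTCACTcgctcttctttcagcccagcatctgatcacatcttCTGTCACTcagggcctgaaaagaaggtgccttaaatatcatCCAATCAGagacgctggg
ZNF737, chr19:20565850-20565918, minus strand: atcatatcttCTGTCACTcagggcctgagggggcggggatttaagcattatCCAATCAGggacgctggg
ZNF493, chr19:21396998-21397066, plus strand: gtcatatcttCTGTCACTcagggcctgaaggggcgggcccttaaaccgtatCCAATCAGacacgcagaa
ZNF91, chr19:23395512-23395652, minus strand: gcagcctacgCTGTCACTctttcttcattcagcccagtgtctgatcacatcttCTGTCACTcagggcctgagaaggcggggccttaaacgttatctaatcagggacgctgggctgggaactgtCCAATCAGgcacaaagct
ZNF430, chr19:21020481-21020588, plus strand: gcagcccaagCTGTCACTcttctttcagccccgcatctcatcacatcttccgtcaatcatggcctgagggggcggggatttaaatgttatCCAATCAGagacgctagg
ZNF675, chr19:23687247-23687315, minus strand: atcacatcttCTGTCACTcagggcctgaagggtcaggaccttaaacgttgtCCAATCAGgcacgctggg
Both words stood in all 9 windows, which were chosen from the promoters that hold both, and CTGTCACT lay upstream of CCAATCAG in each of them. With a median GC content of 56.0% and a median of 10 CpG dinucleotides, the members' promoters compared with 58.3% and 14 over all promoters.

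Levels of the members spanned a wide range. Levels are given as CPM, counts scaled to the size of each library with TMM factors. ZNF714 had the highest level, 93.2 ± 5.08 CPM (SD, n = 3) in WT, and made up 30.5% of the summed CPM of the members over all samples. Per kilobase of the main transcript and over all samples, the highest levels were 10.996 CPM per kb for ZNF714, 6.66 for ZNF675, which encodes an inhibitor of TRAF6 signalling, and 5.88 for ZNF100. At the low end were ZNF682 at 0.246, ZNF737 at 0.423 and ZNF429 at 0.565 CPM per kb. Added together, the members reached 299 ± 11.97 CPM (SD, n = 3) in WT, 324 ± 7.48 in Y641F, 348 ± 3.73 in A677G and 293 ± 2.59 in the LOF mutant. Every sample of Y641F, from 317 to 332 CPM, and of A677G, from 344 to 351, lay above every sample of WT, from 287 to 311, and of the LOF mutant, from 290 to 295. Without ZNF714 the sums were 198 to 212 CPM in WT, 221 to 234 in Y641F, 242 to 247 in A677G and 200 to 202 in the LOF mutant, in the same order. In bulk RNA, more cells with a transcript and more transcript per cell cannot be told apart.

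Of the 21 members, 7 rose and 0 fell in Y641F against WT, where 2.09% of 14263 genes rose and 5.59% fell, by edgeR's quasi-likelihood test at a Benjamini-Hochberg adjusted p under 0.05 over all genes tested. With no threshold on p, 20 of the 21 log2 fold changes were positive, against 51% of all genes. This number was 19 with upper-quartile factors, with the GC trend removed or without replicate 2 or replicate 3 of WT, and 18 without replicate 3 of Y641F. The median of the members was 0.18, against 0.00 over all genes. At an unadjusted p under 0.05, 9 members were higher and 1, ZNF430, was lower, against 7.85% and 11.4% of all genes. DESeq2 and edgeR's exact test also gave 0 members lower. The count of 7 fell to 4 without replicate 1 or without replicate 2 of WT. In 9 members all Y641F samples exceeded all WT samples, which held for 9.28% of all genes. In A677G, 10 members rose and 0 fell, against 2.07% and 6.48% of all genes. Here too 20 of the 21 log2 fold changes were positive, against 51.7% of all genes, with a median of 0.28 against 0.00 over all genes. Unadjusted, 15 members were higher and 0 lower, against 8.13% and 12.3% of all genes, and 0 fell by DESeq2 or by the exact test. In 18 members the A677G samples all exceeded the WT samples, against 12.5% of all genes. The members that rose in Y641F all rose in A677G as well. Both comparisons share the WT samples, so this overlap adds no independent count.

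**Figure D1:**
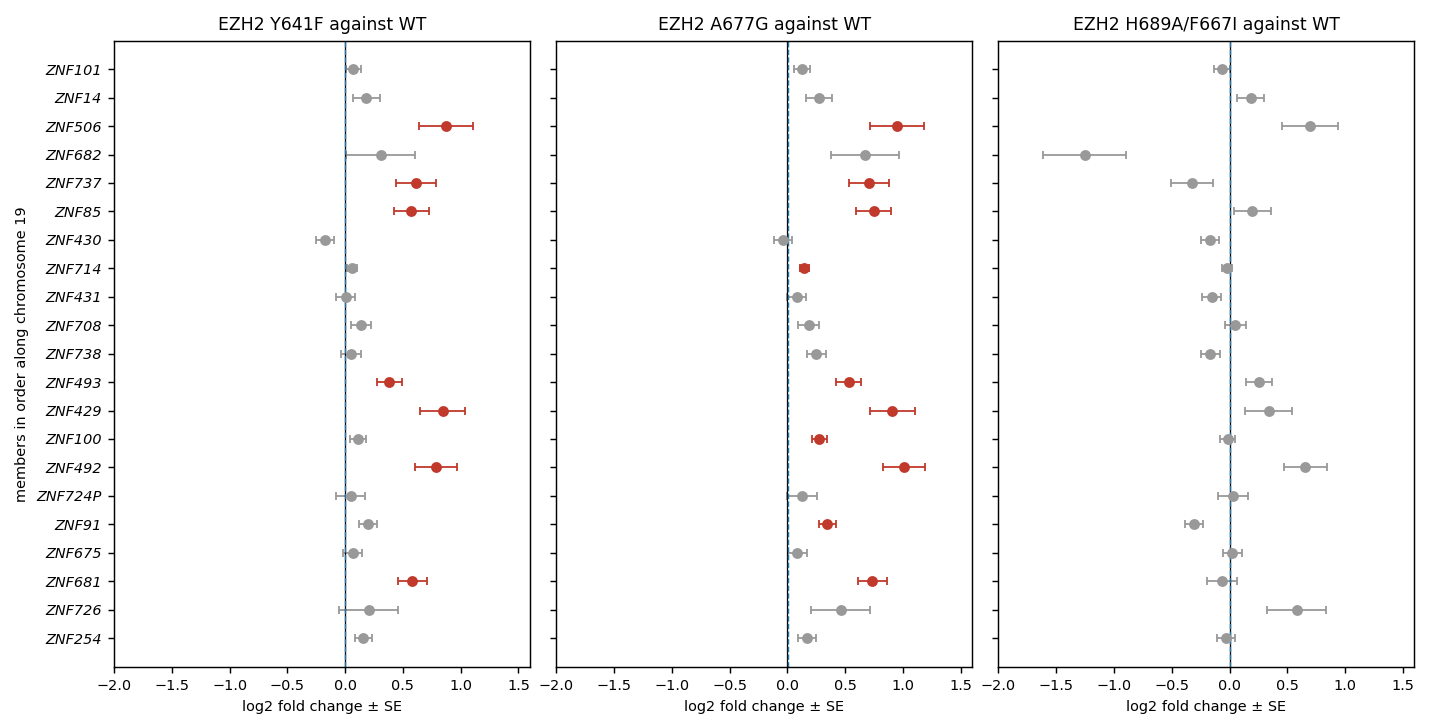
Log2 fold change (x axis) with its standard error for the 21 members, in order along chromosome 19 (y axis), in the 3 mutant lines against WT; red marks an adjusted p under 0.05 and the dashed line the median over all genes tested. Members in red numbered 7 in Y641F, 10 in A677G and 0 in the LOF mutant, and they were spread along the cluster between members in grey.

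The members that rose in both GOF mutants were ZNF429, ZNF492, ZNF506, ZNF681, ZNF85, ZNF737 and ZNF493, with folds of 1.30 to 1.83 in Y641F and 1.45 to 2.01 in A677G. They were among the less abundant members, at 1.40 to 6.52 CPM in WT. ZNF492 (chr19:22634324-22667671, plus strand), which has 12 fingers, no KRAB box pattern and many bases shared with ZNF98, was at 1.68, 2.43 and 2.02 CPM in WT, 3.400, 3.73 and 3.48 in Y641F, 3.72, 4.77 and 3.87 in A677G and 3.92, 2.98 and 2.76 in the LOF mutant. All 9 samples of the mutant lines exceeded all WT samples. Its log2 fold change was 0.79 ± 0.18 (SE; adjusted p = 0.00444) in Y641F, 1.01 ± 0.18 (adjusted p = 0.000181) in A677G and 0.66 ± 0.19 (adjusted p = 0.176) in the LOF mutant. The call in Y641F was lost without replicate 1 of WT (adjusted p = 0.0507). ZNF506 (chr19:19785839-19821751, minus strand), which has 8 fingers, was at 1.299, 1.63 and 1.27 CPM in WT, 2.45, 1.86 and 3.38 in Y641F, 2.74, 2.801 and 2.58 in A677G and 1.596, 2.29 and 2.98 in the LOF mutant. Its GOF samples all exceeded its WT samples, replicates within Y641F and within the LOF mutant spread widely, and the LOF samples overlapped those of the other 3 lines. The log2 fold change of ZNF506 was 0.87 ± 0.24 (adjusted p = 0.0145) in Y641F, 0.95 ± 0.23 (adjusted p = 0.00635) in A677G and 0.70 ± 0.24 (adjusted p = 0.337) in the LOF mutant. In Y641F its call was lost without replicate 1 or 3 of WT (adjusted p = 0.0741 and 0.0624) or replicate 3 of Y641F (0.166). ZNF493 (chr19:21397119-21427577, plus strand), with 18 fingers, was at 6.98, 6.24 and 6.34 CPM in WT, 8.39, 9.03 and 8.09 in Y641F, 9.51, 8.92 and 9.85 in A677G and 7.77, 7.996 and 7.57 in the LOF mutant. Both GOF lines lay above the LOF line, which lay above WT, with no overlap between these 3 levels. For ZNF493 the log2 fold change was 0.38 ± 0.11 (adjusted p = 0.0189) in Y641F, 0.53 ± 0.11 (adjusted p = 0.0006305) in A677G and 0.26 ± 0.11 (adjusted p = 0.481) in the LOF mutant. With only WT and Y641F in the fit, the call of ZNF493 in Y641F was lost (adjusted p = 0.0535), as it was without replicate 2 or 3 of WT (0.0961 and 0.0658) or replicate 2 of Y641F (0.0743).

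The other 4 that rose in both GOF mutants also passed the direct test of the GOF mean, the average of Y641F and A677G, against the LOF mutant. ZNF681 (chr19:23739195-23758891, minus strand), a gene with 11 fingers, was at 4.55, 5.25 and 5.25 CPM in WT, 8.13, 7.28 and 7.07 in Y641F, 7.54, 8.85 and 8.67 in A677G and 4.19, 4.76 and 5.46 in the LOF mutant. No GOF sample overlapped any WT or LOF sample, and the latter 2 lines overlapped. The log2 fold change of ZNF681 was 0.58 ± 0.13 (adjusted p = 0.00188) in Y641F and 0.73 ± 0.13 (adjusted p = 7.75e-05) in A677G, and the GOF mean exceeded the LOF mutant by 0.72 ± 0.11 (adjusted p = 1.1e-05). ZNF429 (chr19:21496682-21556270, plus strand), with 15 fingers, was at 1.87, 1.76 and 1.84 CPM in WT, 3.57, 2.81 and 3.43 in Y641F, 3.59, 3.22 and 3.46 in A677G and 1.73, 2.75 and 2.42 in the LOF mutant. Its WT samples were nearly equal, its GOF samples were all higher, and the LOF samples ranged from the WT level to just under the lowest GOF sample. ZNF429 had a log2 fold change of 0.84 ± 0.19 (adjusted p = 0.00342) in Y641F and 0.91 ± 0.19 (adjusted p = 0.00131) in A677G, and of 0.54 ± 0.17 (adjusted p = 0.0253) between the GOF mean and the LOF mutant. The last call was lost without replicate 1 of the LOF mutant (adjusted p = 0.2501), without its replicate 3 (0.0570) or without replicate 1 of A677G (0.0518).

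ZNF85 (chr19:20923222-20950697, plus strand), with 15 fingers, was at 3.14, 3.49 and 3.74 CPM in WT, 5.06, 5.17 and 5.18 in Y641F, 5.901, 5.16 and 6.36 in A677G and 4.36, 4.53 and 2.92 in the LOF mutant. The GOF samples lay above all others, and replicate 3 of the LOF mutant was the lowest of all 12 samples. ZNF85 changed by a log2 fold change of 0.57 ± 0.15 (adjusted p = 0.0138) in Y641F and 0.75 ± 0.15 (adjusted p = 0.0007701) in A677G. The call in Y641F was lost without replicate 1 or 2 of WT (adjusted p = 0.0908 and 0.0503). Between the GOF mean and the LOF mutant it was 0.46 ± 0.13 (adjusted p = 0.0147), a call lost without replicate 3 of the LOF mutant (adjusted p = 0.202). ZNF737 (chr19:20535825-20565809, minus strand), with 13 fingers, was at 3.06, 2.77 and 2.72 CPM in WT, 3.97, 4.39 and 4.73 in Y641F, 4.76, 4.74 and 4.44 in A677G and 3.08, 1.86 and 1.86 in the LOF mutant. Its GOF samples were all above the others, and 2 of the 3 LOF samples lay below the WT samples. ZNF737 had a log2 fold change of 0.61 ± 0.17 (adjusted p = 0.0189) in Y641F and 0.71 ± 0.17 (adjusted p = 0.00496) in A677G. Without replicate 2 or 3 of WT or replicate 3 of Y641F the call in Y641F was lost (adjusted p = 0.0810, 0.0662 and 0.0884). It differed by 0.99 ± 0.16 (adjusted p = 1.67e-05) between the GOF mean and the LOF mutant, a fold of 1.98.

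**Figure D2:**
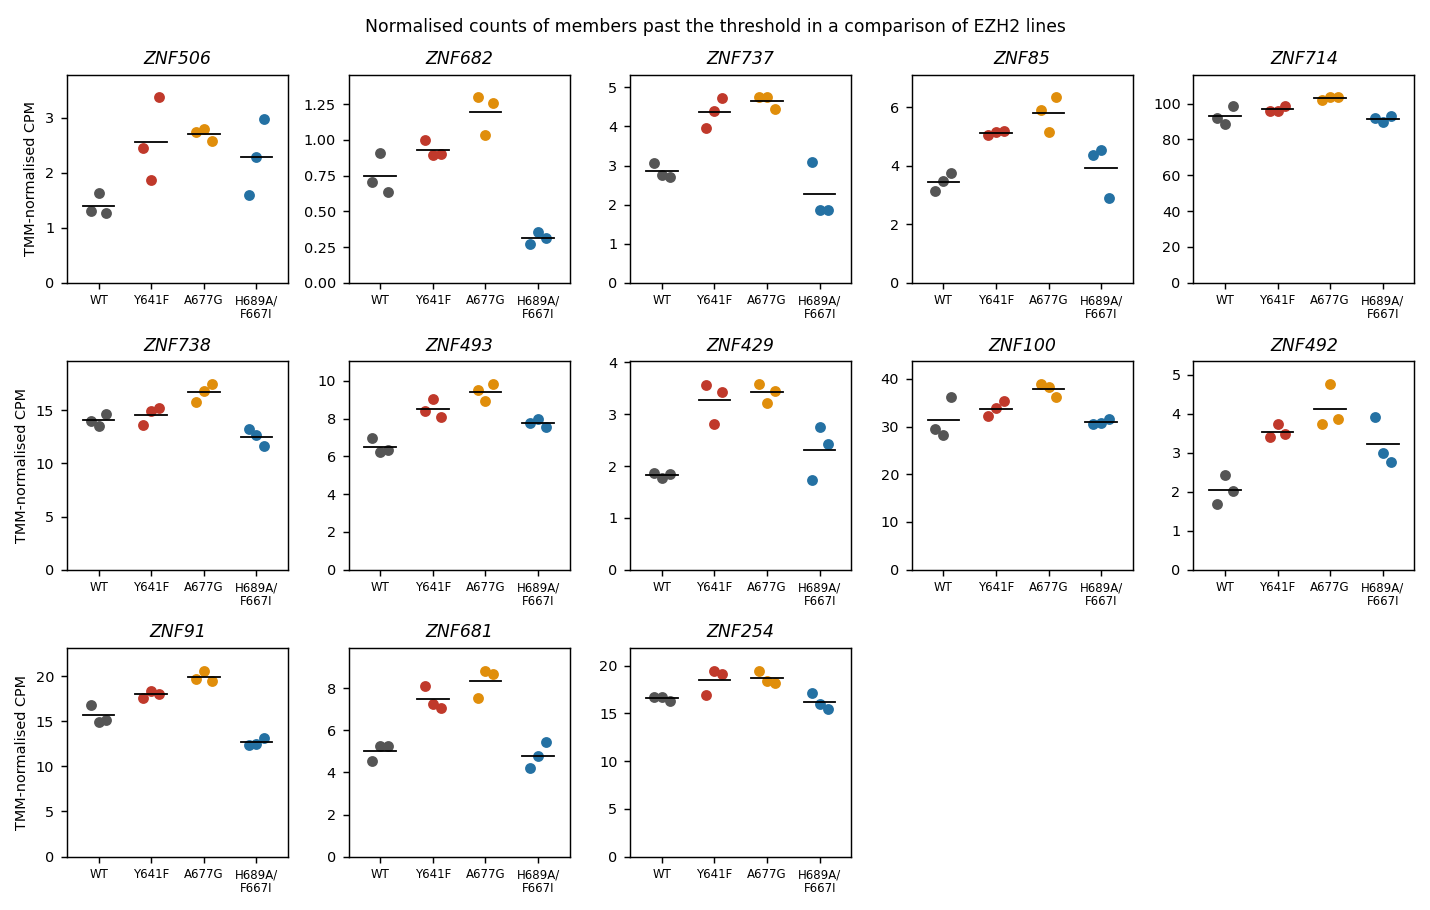
TMM-normalised CPM (y axis, from 0) of the 13 members past the threshold in at least 1 comparison, in each of the 12 samples by line (x axis); points are samples and bars the mean of 3 replicates. In ZNF737, ZNF85, ZNF493, ZNF429, ZNF91 and ZNF681 the 6 GOF samples all lay above the 6 other samples.

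The 3 members that rose in A677G and did not pass the threshold in Y641F were the more abundant ZNF91, ZNF100 and ZNF714. ZNF91 (chr19:23304991-23395471, minus strand) has 32 fingers, the most of the matched members, and its protein represses SVA retrotransposons. It was at 16.8, 14.96 and 15.2 CPM in WT, 17.6, 18.4 and 17.97 in Y641F, 19.6, 20.6 and 19.4 in A677G and 12.4, 12.5 and 13.1 in the LOF mutant. The 4 lines did not overlap, in the order A677G, Y641F, WT and the LOF mutant. ZNF91 had a log2 fold change of 0.35 ± 0.08 (adjusted p = 0.00177) in A677G, 0.20 ± 0.08 (adjusted p = 0.111) in Y641F and -0.31 ± 0.08 (adjusted p = 0.0966) in the LOF mutant. Between the GOF mean and the LOF mutant it was 0.58 ± 0.07 (adjusted p = 7.97e-08), the lowest adjusted p among the members in that comparison. ZNF100 (chr19:21722771-21767579, minus strand), with 11 fingers, was at 29.5, 28.3 and 36.2 CPM in WT, 32.1, 33.9 and 35.3 in Y641F, 38.97, 38.3 and 36.3 in A677G and 30.5, 30.6 and 31.5 in the LOF mutant. Replicate 3 of WT was far above replicates 1 and 2 and reached the level of the GOF samples. The log2 fold change of ZNF100 was 0.28 ± 0.07 (adjusted p = 0.00482) in A677G and 0.11 ± 0.07 (adjusted p = 0.392) in Y641F, where it passed the threshold without that replicate (0.22, adjusted p = 0.0301). Without replicate 1 or 2 of WT the call in A677G was lost (adjusted p = 0.0572 and 0.0882).

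ZNF714 (chr19:21082159-21125270, plus strand), with 12 fingers and no KRAB box pattern, was at 91.9, 88.9 and 98.8 CPM in WT, 96.04, 96.1 and 98.6 in Y641F, 102, 104 and 104 in A677G and 92.2, 89.6 and 93.2 in the LOF mutant. All A677G samples exceeded all others, by little. ZNF714 rose by 0.15 ± 0.04 (adjusted p = 0.0188) in A677G, a fold of 1.11, and this call was lost without replicate 1 or 2 of WT (adjusted p = 0.0937 and 0.170) or without replicate 2 or 3 of A677G (0.0704 and 0.0731). In Y641F it was at 0.06 ± 0.04 (adjusted p = 0.502). That the threshold was passed in 1 GOF mutant does not show a difference between them, and the direct test between Y641F and A677G gave adjusted p = 0.736 for ZNF91, 0.623 for ZNF100 and 0.687 for ZNF714.

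Members with low levels had the larger log2 fold changes. At a limit of 10 CPM in WT, chosen after the values were seen, 10 members lay above and 11 below. Of the 11 below, 7 rose in each GOF mutant, with median log2 fold changes of 0.57 in Y641F and 0.71 in A677G over the 11. Of the 10 above, 0 rose in Y641F and 3 in A677G, with medians of 0.07 and 0.16. In the LOF mutant, where 0 rose, the medians were 0.20 below and -0.05 above the limit. The WT samples enter both the level and the fold change. The same 10 members were above 10 CPM in the LOF mutant, whose samples enter neither fold change. The SE of the log2 fold change in A677G was 0.04 for ZNF714 and 0.23 for ZNF506. Over all genes tested, at any level, 2.09% rose in Y641F and 2.07% in A677G. Shares and medians of all genes on each side of the limit were not computed. Whether other genes with low levels showed the same pattern was therefore not tested.

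**Figure D3:**
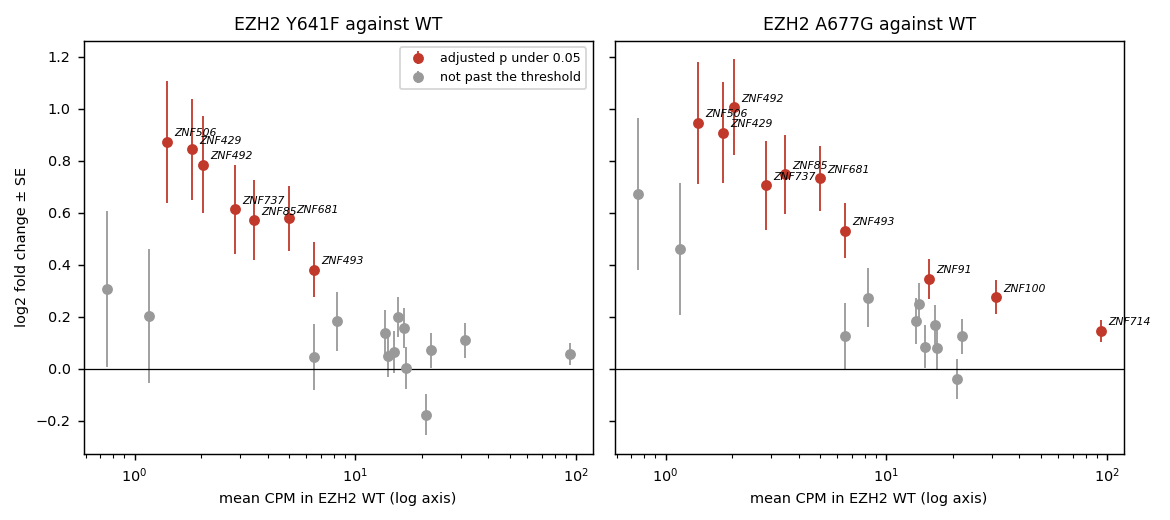
Log2 fold change with its standard error (y axis) against the mean CPM in WT (x axis, log scale) for the 21 members in the 2 GOF mutants; red marks an adjusted p under 0.05. The 7 members that rose in both GOF mutants lay between 1.40 and 6.52 CPM, and of the 10 members above 10 CPM the highest log2 fold changes were 0.20 in Y641F and 0.35 in A677G.

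In the LOF mutant the members did not shift together. Of the 21, 0 rose and 0 fell against WT by edgeR's quasi-likelihood test, where 0.14% of all genes rose and 0.161% fell. These shares leave out 175 genes without a count in any sample of A677G or of the LOF mutant, and with them kept 0.208% of genes rose and 0.963% fell. The exact test gave 0.449% and 0.582% of all genes. At an unadjusted p under 0.05, 4 members were higher and 3 lower, against 4.2% and 4.1% of all genes. DESeq2 gave 0 higher and 1 lower, ZNF91 (adjusted p = 0.0352), and the exact test 0 higher and 2 lower, ZNF91 (adjusted p = 0.0374) and ZNF682 (adjusted p = 0.0432). Over all alternatives the adjusted p ranged from 0.0352 to 0.514 for ZNF91 and from 0.0432 to 0.562 for ZNF682. The log2 fold changes were positive in 10 and negative in 11, against 51.2% of all genes positive, with a median of -0.02 against 0.00 over all genes. Without overlap of replicates, 3 members were higher, against 7.89% of all genes, and 4 were lower, against 7.14%. The 3 higher were ZNF492, ZNF493 and ZNF726, and the 4 lower were ZNF682, ZNF91, ZNF431 and ZNF738. ZNF726 (chr19:23914876-23945159, plus strand), with 14 fingers, had its highest mean in the LOF mutant, at 1.27, 1.14 and 1.09 CPM in WT, 1.31, 1.55 and 1.18 in Y641F, 1.62, 1.35 and 1.86 in A677G and 1.81, 1.35 and 2.11 in the LOF mutant. LOF samples exceeded all WT samples and overlapped the GOF samples, and the log2 fold change of 0.58 ± 0.25 did not pass the threshold (adjusted p = 0.508).

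The GOF mutants were compared with the LOF mutant directly, which tests whether the effects differ. Against the LOF mutant, 10 members were higher and 0 were lower in the GOF mean, the average of Y641F and A677G, against 3.81% and 8.75% of all genes. The log2 difference was positive in 20 of 21, against 51.6% of all genes, with ZNF726 the exception at -0.25 ± 0.21 (adjusted p = 0.524), and the median was 0.20 against 0.00 over all genes. It was positive in 19 without replicate 2 and in 18 without replicate 3 of the LOF mutant. Unadjusted, 13 were higher and 0 lower, against 9.91% and 13.9% of all genes, and 0 were lower by DESeq2 or the exact test. For this comparison the exact test pooled the 6 GOF samples into a single group, in place of the average of the lines. In 11 members the 6 GOF samples all exceeded the 3 LOF samples, against 5.16% of all genes. ZNF682 (chr19:19997058-20039505, minus strand), with 10 fingers, had the largest difference and was the least abundant member, at 0.704, 0.906 and 0.634 CPM in WT, 0.998, 0.893 and 0.899 in Y641F, 1.301, 1.03 and 1.26 in A677G and 0.271, 0.357 and 0.3103 in the LOF mutant. The LOF samples, with counts of 10, 14 and 10, were below all others, Y641F overlapped WT and A677G lay above it. The GOF mean exceeded the LOF mutant by 1.74 ± 0.31 for ZNF682 (adjusted p = 7.89e-05), a fold of 3.35. Against WT the log2 fold change was 0.67 ± 0.29 (adjusted p = 0.172) in A677G, 0.31 ± 0.30 (adjusted p = 0.644) in Y641F and -1.25 ± 0.36 (adjusted p = 0.175) in the LOF mutant.

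ZNF738 (chr19:21358930-21388582, plus strand), with 5 fingers and shared bases, was at 13.96, 13.6 and 14.7 CPM in WT, 13.6, 14.9 and 15.2 in Y641F, 15.8, 16.9 and 17.5 in A677G and 13.3, 12.7 and 11.6 in the LOF mutant. LOF samples lay below all others, and A677G samples above all others. The GOF mean of ZNF738 exceeded the LOF mutant by 0.32 ± 0.07 (adjusted p = 0.00247), while in A677G against WT it was at 0.25 ± 0.08 (adjusted p = 0.0548). That value passed the threshold with the exact test, DESeq2, limma voom, only the compared groups or without replicate 1 of Y641F (adjusted p from 0.0181 to 0.0387). ZNF254 (chr19:24033405-24129968, plus strand), with 13 fingers, was at 16.8, 16.7 and 16.4 CPM in WT, 16.95, 19.5 and 19.2 in Y641F, 19.5, 18.4 and 18.2 in A677G and 17.2, 16.04 and 15.5 in the LOF mutant. Its GOF samples all lay above the WT samples, and Y641F overlapped the LOF mutant. The difference between the GOF mean and the LOF mutant was 0.20 ± 0.07 (adjusted p = 0.0459). This call was lost in 6 of 12 other settings, which include a repeat of the main fit. It was also lost without replicate 2 or 3 of Y641F, 1 or 2 of A677G or 2 or 3 of the LOF mutant (adjusted p from 0.0612 to 0.198). The GOF mean also exceeded the LOF mutant for ZNF100, by 0.21 ± 0.06 (adjusted p = 0.0115), and for ZNF714, by 0.13 ± 0.04 (adjusted p = 0.0162). ZNF100 lost this call without replicate 1 or 2 of the LOF mutant (adjusted p = 0.0622 and 0.0581), and ZNF714 without replicate 2 (0.107). ZNF506, ZNF492 and ZNF493 rose against WT but did not pass the threshold against the LOF mutant, with differences of 0.21 ± 0.19 (adjusted p = 0.5596), 0.24 ± 0.15 (adjusted p = 0.359) and 0.20 ± 0.09 (adjusted p = 0.166).

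Between the GOF mutants, 0 of the 21 members passed the threshold by edgeR's quasi-likelihood test, where 0.0701% of all genes were higher and 0.014% lower in Y641F. With the 175 genes at 0 kept these shares were 1.13% and 0.104%, and 0 members passed. DESeq2 and the exact test also gave 0. Unadjusted, 0 were higher and 3 lower in Y641F, ZNF714, ZNF738 and ZNF100, against 3.69% and 3.21% of all genes. The mean CPM was higher in A677G in 21 of 21 members, and the log2 difference of Y641F to A677G was negative in 21, against 50% of all genes, from -0.36 to -0.01 with a median of -0.09 against 0.00 over all genes. In 6 members all Y641F samples lay below all A677G samples, which held for 4.86% of all genes. It was negative in 20 with library totals alone or without replicate 1 of Y641F or any 1 of the A677G replicates, and in 18 without replicate 2 of Y641F. The lowest adjusted p was 0.623, for ZNF100. Of 436 other tested genes with a ZNF symbol, the log2 difference of Y641F to A677G was negative in 268. Of the 189 of these on chromosome 19 it was negative in 132, with a median of -0.05, so this lean was not particular to the members.

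The members that passed the threshold in no comparison were ZNF101, ZNF14, ZNF430, ZNF431, ZNF708, ZNF724P, ZNF675 and ZNF726. In other settings ZNF431 passed for the GOF mean against the LOF mutant with limma voom (adjusted p = 0.0208) or without replicate 2 of Y641F (0.0421), and ZNF101 without replicate 1 of Y641F (0.0384). ZNF675 (chr19:23525631-23687220, minus strand), with 11 fingers, was at 13.6, 15.6 and 15.6 CPM in WT, 16.4, 15.2 and 15.3 in Y641F, 15.6, 15.8 and 16.1 in A677G and 16.3, 15.3 and 13.96 in the LOF mutant. Its lines overlapped apart from A677G with WT, where the lowest A677G sample was just above the highest of WT. The log2 fold changes of ZNF675 were 0.07 ± 0.08 in Y641F, 0.09 ± 0.08 in A677G and 0.02 ± 0.08 in the LOF mutant. ZNF430, with 11 fingers, was the member with negative values in both GOF mutants, -0.18 ± 0.08 (adjusted p = 0.192) in Y641F and -0.04 ± 0.08 (adjusted p = 0.841) in A677G, and it was at -0.17 ± 0.08 (adjusted p = 0.539) in the LOF mutant. ZNF430 and its neighbour ZNF714 carry the same promoter words. For ZNF101, ZNF14, ZNF431, ZNF708 and ZNF724P, log2 fold changes lay between 0.00 and 0.18 in Y641F, between 0.08 and 0.27 in A677G and between -0.15 and 0.18 in the LOF mutant.

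Medians of other zinc finger genes were nearer to 0. Of 436 other genes tested whose symbol starts with ZNF, 8 rose and 6 fell in Y641F and 13 rose and 6 fell in A677G, and their median log2 fold changes were 0.03 and 0.05, against 0.18 and 0.28 for the cluster. These are 1.83% and 1.38% of them in Y641F and 2.98% and 1.38% in A677G, where 2.09% and 5.59%, and 2.07% and 6.48%, of all genes rose and fell. In the GOF mean against the LOF mutant, 33 of the 436 (7.57%) were higher and 14 (3.21%) lower, against 3.81% and 8.75% of all genes, with a median of 0.05 against 0.20 for the cluster. The 189 of these on chromosome 19 had medians of 0.04 and 0.09, with 5 and 6 that rose. Other ZNF genes also leaned to positive log2 fold changes, 272 of the 436 in Y641F and 296 in A677G. On chromosome 19 these were 120 and 139 of the 189. For the GOF mean against the LOF mutant the difference was positive in 300 of the 436 and 133 of the 189. Genes of chromosome 19 without a ZNF symbol, 744 in number, had medians of -0.03 in Y641F and 0.00 in A677G. Only 2 genes without a zinc finger symbol between the members were tested, IPO5P1 and RPSAP58, and 0 of them passed the threshold against WT in any line by edgeR's quasi-likelihood test. Bases shared with other genes were not computed for these 2, so their estimates may also be uncertain. Per kilobase of a main transcript of 287 bases, IPO5P1 was at 98.7 CPM, above every member. At an unadjusted p under 0.05 IPO5P1 was higher in A677G (0.14 ± 0.06), and it was higher in the GOF mean than in the LOF mutant (0.20 ± 0.06, adjusted p = 0.0146). Transcripts of the members were poor in GC, with a median of 36.8% and a range of 33.2% to 45.0%, against a median of 48.4% over all genes with a known value. Among 5000 genes without a ZNF symbol and with GC content in that range, 3.14% rose in Y641F and 2.54% in A677G, with medians of 0.02 and 0.01. With the GC trend of each sample removed, 7 members rose in Y641F, 10 in A677G and 0 in the LOF mutant.

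**Figure D4:**
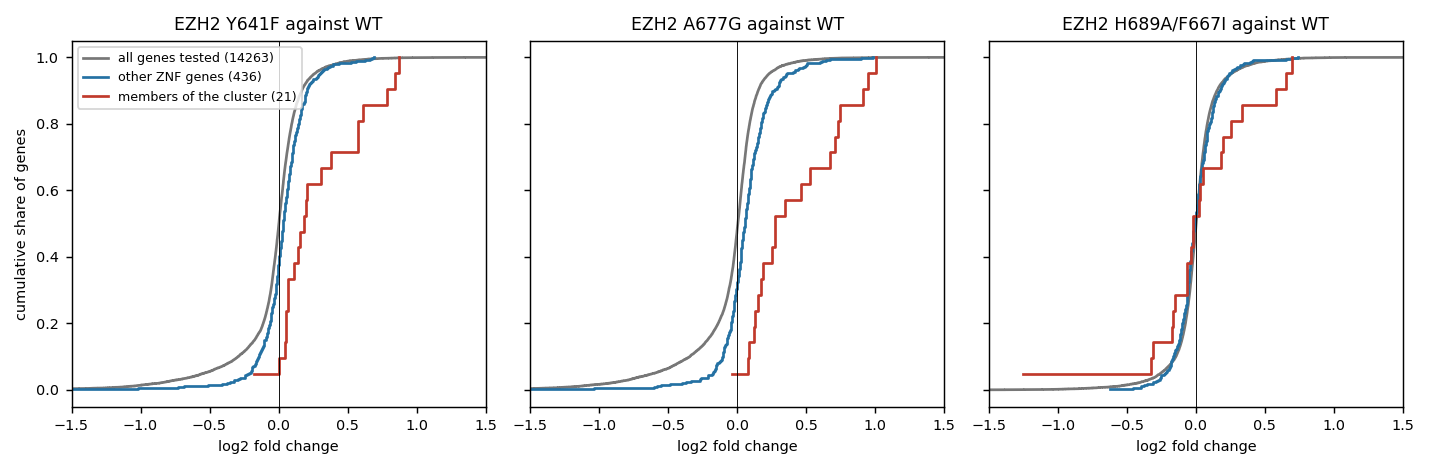
Cumulative share of genes (y axis) by log2 fold change (x axis) in the 3 mutant lines against WT, for all 14263 genes tested, for 436 other ZNF genes and for the 21 members of the cluster. Over most of its length the curve of the members lies to the right of both others in Y641F and A677G, where medians were 0.18 and 0.28, and crosses them in the LOF mutant, where the median was -0.02.

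The corepressors that KRAB domains act through did not pass the threshold against WT. Of 18 genes for this pathway, 0 rose and 0 fell against WT in any line by edgeR's quasi-likelihood test. Of all genes, 2.09% rose and 5.59% fell in Y641F, 2.07% and 6.48% in A677G and 0.14% and 0.161% in the LOF mutant. At an unadjusted p under 0.05 by the same test, 1 was higher and 1 lower in Y641F, against 7.85% and 11.4% of all genes. In A677G 2 were higher and 1 lower, against 8.13% and 12.3%. In the LOF mutant 0 were higher and 1 lower, against 4.2% and 4.1%. The lower gene was TRIM28 in each line, but these comparisons share the WT samples. TRIM28 was at 740, 713 and 657 CPM in WT, and replicate 3 of WT lay within the range of every mutant line. TRIM28, the corepressor that binds the KRAB domain, had log2 fold changes of -0.08 ± 0.04 in Y641F, -0.09 ± 0.04 in A677G and -0.10 ± 0.04 in the LOF mutant. In the same order, its unadjusted p was 0.0316, 0.0195 and 0.0136 and its adjusted p 0.198, 0.140 and 0.416. SETDB1, the H3K9 methyltransferase brought in by TRIM28, was at 0.02 ± 0.04, 0.02 ± 0.04 and -0.03 ± 0.04 in the same order. Between the GOF mean and the LOF mutant 1 of the 18 was higher, ATF7IP, the partner of SETDB1, at 0.16 ± 0.04 (adjusted p = 0.0126), against 3.81% of all genes.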

How the data were processed

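RNA-Seq was performed on 12 samples of HEK293T lines with introduced EZH2, 3 per genotype, from poly(A) libraries of a stranded mRNA kit. Per the study's methods, the authors trimmed reads (Trim Galore 0.6.5), aligned them to GRCh38 (STAR 2.7.9a) and estimated transcript abundance (Salmon 1.2.0). The deposited values are raw whole-number counts per gene symbol. How estimates became counts, and the filter on genes, are not given in the sources used here. Salmon divides reads shared by similar transcripts, which affects duplicated genes. Total counts of 32137700 to 44562413 per sample set the precision, and 175 genes without a count in any sample of A677G or of the LOF mutant were left out, a step taken with these counts known. The remaining 14263 genes were fitted with edgeR 4.0.16 (R 4.3.3), with TMM, 1 coefficient per line and the quasi-likelihood test in place of the study's exact test, and Benjamini-Hochberg adjustment at 0.05. SE is the log2 fold change divided by the square root of F. The procedures were tested on simulated data. Positions, exons, fingers and GC come from GENCODE on GRCh38 (13272 symbols matched by name, 809 by an older symbol, 357 not matched), promoters from RefSeq. The members and all lists were chosen with earlier results of these data known. Every member could be named, with values by sample for those past the threshold and for the 3 highest and lowest per kilobase. Alternatives were the exact test, DESeq2 1.42.0, limma 3.58.1 voom with quality weights, other scalings and filters, only the compared groups, a replicate block, removal of the GC trend, and each sample left out.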

Additional observations from a re-analysis of the deposited data

Results flagged for a closer look

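For 10 members the effect of the GOF mutants differed from that of the LOF mutant by the direct test between their means (edgeR quasi-likelihood test, adjusted over all genes tested). The log2 difference between the average of Y641F and A677G and the LOF mutant was 1.74 for ZNF682, 0.99 for ZNF737, 0.72 for ZNF681, 0.58 for ZNF91 and 0.54 for ZNF429. It was 0.46 for ZNF85, 0.32 for ZNF738, 0.21 for ZNF100, 0.20 for ZNF254 and 0.13 for ZNF714. All 10 were higher in the GOF mutants, where 3.81% of all genes tested were higher and 8.75% lower. Of other ZNF genes, 7.57% were higher. With 1 sample left out, the call of ZNF254 held in 3 of 9 fits and that of ZNF429 in 6 of 9. Calls of ZNF100, ZNF85 and ZNF714 were also lost in some of these fits. ZNF682, ZNF738 and ZNF254 passed the threshold against WT in no line by edgeR's quasi-likelihood test. The difference for ZNF682 rests on counts of 10, 14 and 10 in the LOF mutant. With 3 samples per line, single samples far from their group were not tested for.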

How the results depend on the processing

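With 3 samples per line and common biological coefficient of variation of 0.0471, small changes of the least abundant members were within error. The 12 other settings gave 6 or 7 members higher in Y641F, 10 or 11 in A677G, 0 in the LOF mutant and 9 to 11 in the GOF mean against the LOF mutant. Among them, the setting without a filter on low counts repeated the main fit, because the main filter removed 0 genes. In the LOF mutant 2 members fell with the exact test, 1 with DESeq2 and 1 with the genes at 0 kept, against 0 in the other fits; the cause was not tested. With 1 sample left out, members higher numbered 4 to 7 in Y641F, 8 to 11 in A677G and 7 to 11 against the LOF mutant. The median log2 fold change of the members then ranged from 0.16 to 0.25 in Y641F, from 0.24 to 0.38 in A677G, from -0.037 to 0.055 in the LOF mutant, from -0.147 to -0.0934 between the GOF mutants without 1 of their samples (to -0.0908 without a WT or LOF sample) and from 0.18 to 0.23 for the GOF mean against the LOF mutant. In A677G the median was 0.26 with upper-quartile factors or with the GC trend removed, also with the replicate block, and 0.32 with limma voom, which gave 0.018 in the LOF mutant. Over these scalings the median of all genes moved by under 0.02 on the log2 scale.

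No pairing of samples by replicate number was seen. The correlation of deviations of same-numbered samples lay between -0.06 and 0.05 in 18 pairs, and 3 of 12 samples correlated best with their own number. Whether same-numbered samples were handled together is not stated. With the replicate block, 7 members rose in Y641F, 10 in A677G and 9 in the GOF mean against the LOF mutant, and 0 passed in the LOF mutant. With the block and the GC trend removed these counts were 7, 10, 9 and 0.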
